A study of Oryza sativa with 4 samples.

Results

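Dehydrins are small hydrophilic proteins of the late embryogenesis abundant (LEA) group. They build up in the drying embryo of the seed and in vegetative tissue under water loss, cold or salt, and are thought to shield membranes and other proteins when water is scarce. Abscisic acid (ABA), the hormone of seed maturation and water stress, induces many of them, and the rice RAB16 genes take their name from being responsive to ABA. In that pathway ABA is made through 9-cis-epoxycarotenoid dioxygenases and aldehyde oxidases, its receptors inhibit protein phosphatases 2C, and basic leucine zipper (bZIP) factors then act on promoters of genes such as RAB16.

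The 8 loci described here are rice dehydrin loci of the MSU annotation, looked up by locus ID in the deposited tables. They were selected by family, but with the FPKM values of both groups known, so those values are given as a description and no test was made on them. FPKM counts the fragments of a transcript relative to its length and to all mapped fragments of the library. Of the 8 loci, 5 are listed, among 3141 listed loci in all, and each of the 5 has 1 transcript. LOC_Os01g50700, LOC_Os02g44870 and LOC_Os03g45280 are not listed. Because the tables hold transcripts that passed the authors' fold and p-value filters, a locus with no row may have missed either one, and its level in both groups is unknown. The tables also hold 198 transcripts without a locus ID, which could not be matched to these 3 loci, so one of them may be present under no locus name.

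The study followed senescence of the coleoptile, the sheath around the first leaf of a grass seedling, in wild-type rice of variety PB1 (Pusa Basmati 1). Seeds were submerged, which gives long coleoptiles, and seedlings were then placed in air. The control group is 2 libraries at 7 days post germination, collected on transfer to air per the study's methods, and the day 2 group is 2 libraries at 9 days, after 2 days in air. All 4 libraries carry submergence as their treatment label, which goes against air for day 2. The transfer to air is taken from the labels' protocol and the study's methods, and as described there the groups differ by time in air and by age together. Each group has 1 FPKM per transcript that pools its libraries, so no value below has an error, an n or a replicate check, and a difference between the groups compares these pooled libraries. The number of fragments behind a value is unknown.

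The tables list 3439 transcripts, which make 3339 items when FPKM is summed per locus and transcripts without a locus ID are kept single. No transcript with FPKM in both groups has a log2 ratio closer to 0 than 2.00. Over the items the median log2 ratio of day 2 to control is 2.35. Fermentation enzymes, which plants use without oxygen, were looked at because the control was collected on leaving submergence. Since all 4 libraries carry the submergence label and the list holds only changed loci, the values are no check of a label. Alcohol dehydrogenase ADH1 (LOC_Os11g10480) went from FPKM 956.7 to 136.9 and pyruvate decarboxylase PDC2 (LOC_Os03g18220) from 654.3 to 63.8, and all 4 loci on that list were lower at day 2, as were 34.4% of all items. Like every list used here, it was drawn from a table of changed transcripts.

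All 5 listed dehydrins lie on chromosome 11 and all 5 were higher at day 2. A locus is called higher when its log2 ratio is at least 2 and its larger FPKM at least 1, a rule that 56.8% of the listed items met. A rise of 32-fold or more was found for 8.18% of the items and for all 5 dehydrins, with log2 ratios from 6.31 to 10.81 and a median of 10.05. These shares restate what the loci were picked from and are no evidence about the family. Summed over the 5, FPKM was 164-fold higher at day 2 (7775) than in control (47.3). In control they made up 0.0176% of the summed FPKM of all listed transcripts, and at day 2 5.38%. That sum covers changed transcripts only and went from 269393 in control to 144639 at day 2. The percentages are thus no shares of all transcripts, and part of their rise comes from the smaller sum.

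RAB21, also known as RAB16A (LOC_Os11g26790, IRGSP-1.0 chromosome 11, 15342876 to 15343671), was the most abundant dehydrin in both groups. It is the RAB16 gene first found as a transcript induced by ABA and water loss in rice. Control coleoptiles had FPKM 43.2 and day 2 coleoptiles FPKM 3422, which is 79.2-fold more (log2 ratio 6.31). It was the only listed dehydrin above FPKM 3 before transfer to air, and only 2 items had a higher FPKM at day 2.

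The gene before it on the map is RAB16B (LOC_Os11g26780, chromosome 11, 15336191 to 15337158), at FPKM 1.04 in control and FPKM 1103 at day 2 (log2 ratio 10.05). RAB16C (LOC_Os11g26760, chromosome 11, 15327768 to 15328657) had the lowest FPKM of the listed dehydrins in both groups, 0.337 in control and 605.0 at day 2. Its log2 ratio of 10.81 was the highest of the family and the fifth highest of the 3070 items above 0 in both groups. RAB16D (LOC_Os11g26750, chromosome 11, 15320287 to 15321526) had FPKM 0.668 in control and 995.5 at day 2 (log2 ratio 10.54). For RAB16C and RAB16D the control value is under FPKM 1, so the size of their ratios depends on a very low level whose error is unknown. The same holds for every other locus below with a control FPKM under 1. With control values under FPKM 1 raised to 1, the log2 ratio was 9.24 for RAB16C and 9.96 for RAB16D.

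The fifth locus, LOC_Os11g26570 (chromosome 11, 15223375 to 15224746), is described as a dehydrin by the study and carries no RAB16 name in RefSeq. It had FPKM 2.09 in control and 1651 at day 2 (log2 ratio 9.63). That placed it second among the dehydrins in both groups, and it had the tenth highest FPKM of all items at day 2.

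**Figure D1:**
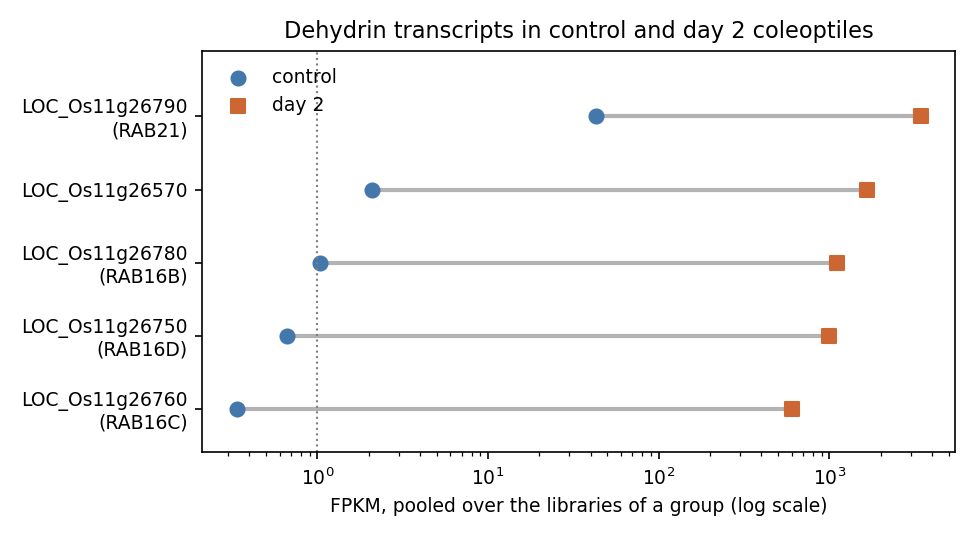
FPKM of the 5 listed dehydrins (log axis) in control (circles) and at day 2 (squares), 1 value per group that pools its libraries, with a dotted line at FPKM 1. All 5 sit between 0.337 and 43.2 in control and between 605.0 and 3422 at day 2.

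By their pooled values the dehydrins had the same order of abundance in both groups. In both groups RAB21 was highest, followed by LOC_Os11g26570, RAB16B, RAB16D and RAB16C. The log2 ratios run in exactly the opposite order, from RAB16C down to RAB21. That order rests on the low control values, since with control raised to FPKM 1 RAB16C, at 9.24, is below RAB16D (9.96) and RAB16B (10.05), while RAB21 stays lowest. The 5 loci were far apart in control and close together at day 2, since the highest exceeded the lowest 128-fold in control and 5.66-fold at day 2.

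Most of that spread in control came from RAB21, which was 20.7-fold above LOC_Os11g26570, whereas at day 2 it was 2.07-fold above it. Among the other 4 loci the range was 6.20-fold in control and 2.73-fold at day 2. The steps between neighbours in the order are small at day 2, 1.5-fold from LOC_Os11g26570 to RAB16B, 1.11-fold from RAB16B to RAB16D and 1.65-fold from RAB16D to RAB16C. In control the same steps are 2.01-, 1.55- and 1.98-fold, at FPKM 2.09 or less. With no spread between replicates at hand, none of these neighbours is shown to differ in either group. A kept order among these loci is therefore not shown. RAB21 held 91.3% of the summed dehydrin FPKM in control and 44.0% at day 2. Without it, the sum over the other 4 went from FPKM 4.13 to 4354, a 1055-fold difference.

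The 4 RAB16 genes stand in a row of 23.4 kb, with gaps of 6.24 kb from RAB16D to RAB16C, 7.53 kb from RAB16C to RAB16B and 5.72 kb from RAB16B to RAB21. LOC_Os11g26570 lies apart, 95.5 kb before RAB16D. The RefSeq annotation (assembly ASM3414082v1, used only for names and gene order) has 2 further entries between RAB16D and RAB21, a long non-coding RNA and a pseudogene, and 7 between LOC_Os11g26570 and RAB16D, of which 1 codes for protein. Whether level follows position in the row is not shown. The gene with the lowest FPKM, RAB16C, stands between RAB16D and RAB16B, but it is not shown to differ from RAB16D. The RAB16 genes are related tandem copies, so fragments may be shared among them, and the counting of such fragments is not described in the sources used here. The split of FPKM between the 4 genes is therefore less certain than their sum.

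No other transcript is listed within 200 kb of these genes. The nearest listed transcripts on either side were both lower at day 2. They are LOC_Os11g26130, a receptor protein kinase TMK1 precursor 255.5 kb before LOC_Os11g26570, with FPKM 21.0 in control and 3.50 at day 2, and LOC_Os11g27540, 507.5 kb after RAB21, with FPKM 65.3 and 15.6.

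**Figure D2:**
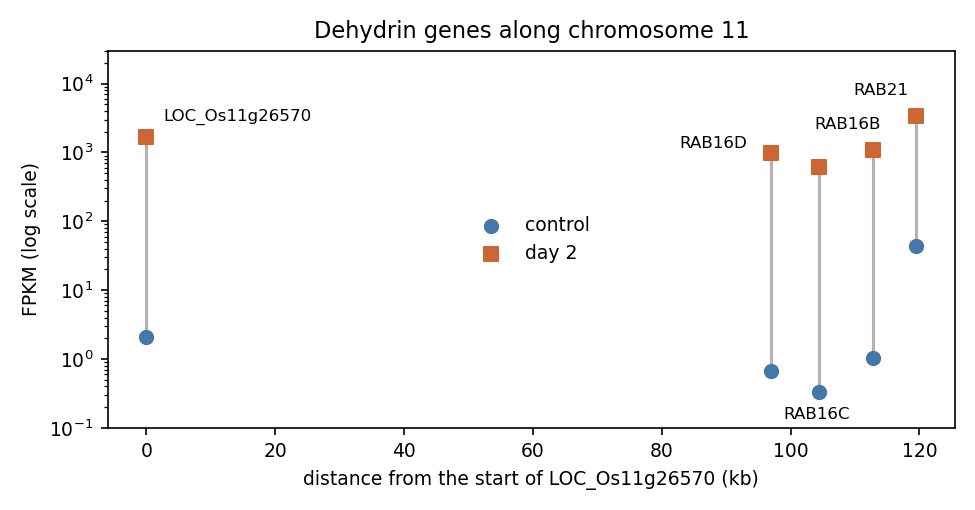
FPKM (log axis) of the 5 listed dehydrins in control (circles) and at day 2 (squares) against distance in kb from the start of LOC_Os11g26570. The 4 RAB16 genes stand within 23.4 kb of each other, and every gene is higher at day 2, with the smallest distance between the groups at RAB21.

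Apart from RAB21, with FPKM 43.2 in control, the listed dehydrins had low FPKM in control and high FPKM at day 2. FPKM under 3 in control and 500 or more at day 2 was found for 17 items, and 4 of these were dehydrins. A log2 ratio of 9 or more was found for 20 items, again with 4 dehydrins among them. Both limits were set after the values had been seen. The 273 items that were higher by 32-fold or more had a median FPKM of 0.386 in control and 34.3 at day 2. Of the FPKM gained over the 2180 items with more FPKM at day 2, the 5 dehydrins held 6.89% and RAB21 alone 3.01%.

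**Figure D3:**
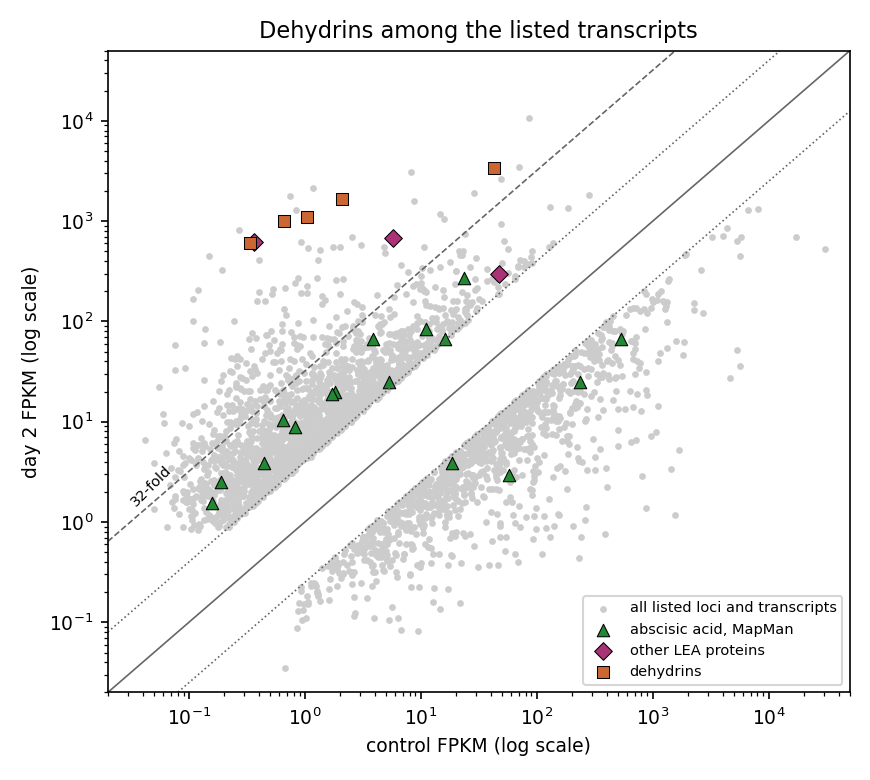
FPKM at day 2 against control FPKM for all listed items above 0 in control (grey points, both axes log), with dehydrins (squares), other LEA proteins (diamonds) and ABA loci (triangles). The solid line marks equality, dotted lines 4-fold and the dashed line 32-fold; the empty band arises because the tables list only changes of 4-fold or more, and all 5 dehydrins lie above the dashed line.

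The items whose levels were most like those of the dehydrins were found by distance from the median of the 5 dehydrins over log2 FPKM of the 2 groups. The closest, at 0.39 log2 units, is a transcript with no locus ID (TCONS_00008791) that went from FPKM 0.839 to 1304. It was followed by LOC_Os04g49980 at 0.85 units, from 0.749 to 1799, and LOC_Os08g01370 at 0.86 units, from 0.923 to 614.6. The remaining pair has names. The cupin domain protein GER1 (LOC_Os08g08980) lay at 0.96 units with FPKM 1.18 and 2126, and the peroxiredoxin R1C-Prx (LOC_Os07g44430) at 1.05 units with FPKM 1.07 and 533.8.

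None of the other LEA proteins on a list made by description was lower at day 2. The list holds 10 loci that the study's descriptions call late embryogenesis or seed maturation proteins, and it is neither complete nor independent, because that table covers changed transcripts and was at hand in shortened form. Of the 10, 3 were higher, and 7 had no FPKM in control but at least 1 at day 2, which was so for 7.73% of all items. LEA1, also called OsLEA3-2 (LOC_Os03g20680), had FPKM 0.366 in control and 612.9 at day 2 (log2 ratio 10.71). Seed maturation protein PM41 (LOC_Os01g46600) went from FPKM 5.76 to 682.0, and LOC_Os01g21250 from 46.8 to 298.4. The 7 loci listed at 0 in control reached only FPKM 2.37 to 26.7 at day 2. The summed FPKM of the 10 loci at day 2 was 1671. Loci with no description at hand could not enter the list, such as LOC_Os05g46480 (FPKM 3506 at day 2) and LOC_Os01g50910 (FPKM 2653). These loci were not classified here, and each alone had more FPKM at day 2 than the 10 listed loci together. A locus described as embryonic protein DC-8 (LOC_Os01g16920, FPKM 0.385 and 159.7) was not on the list either. The sum of 1671 therefore cannot be ranked against the 7775 of the dehydrins, and may leave out abundant LEA proteins.

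The ABA loci of the study's MapMan grouping had smaller ratios. Of 16 loci, 12 were higher and 4 lower, against 56.8% and 34.4% of all items, and none was higher by 32-fold. With FPKM 1 required in both groups 7 were higher, but the share of all items under that rule was not computed. Their median log2 ratio was 3.22, with a highest value of 4.11 for the HVA22 locus LOC_Os11g30500, which went from FPKM 3.86 to 66.6. The most abundant were LOC_Os04g44510, described as a GEM protein, from FPKM 528.9 to 66.5, its neighbour LOC_Os04g44500 from 235.1 to 24.97, and the GRAM domain locus LOC_Os12g29400 from 23.4 to 272.2. All 4 lower loci are described as GEM proteins.

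Another 4 ABA loci are given for their roles and were chosen after their values had been seen. Both 9-cis-epoxycarotenoid dioxygenase loci, whose enzymes form the precursor of ABA, were higher, LOC_Os07g05940 from FPKM 1.82 to 19.7 and LOC_Os02g47510 from 0.190 to 2.52. The bZIP factors LOC_Os06g10880 and LOC_Os09g28310 went from FPKM 5.27 to 24.7 and from 0.817 to 8.85. Their levels at day 2 were thus far under those of the RAB16 genes.

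Protein phosphatases 2C include brakes on ABA signalling that ABA itself induces, although not every member of that family acts in this pathway. Of 9 loci with that description, 7 were higher and 2 lower, against 56.8% and 34.4% of all items, with a median log2 ratio of 2.66. With FPKM 1 required in both groups 4 were higher, and with a pseudocount of 1 neither lower call held. The shares of all items under these rules were not computed. OsPP2C59 (LOC_Os06g48300) had the highest FPKM, 3.12 in control and 139.8 at day 2, and OsPP2C49 (LOC_Os05g38290) had FPKM 0.108 and 12.1 (log2 ratio 6.80), a ratio that rests on the lowest control value of these loci. OsPP2C08 (LOC_Os01g46760) had FPKM 0.945 and 42.5 (log2 ratio 5.49). The 2 lower loci, OsPP2C25 (LOC_Os02g46080) and OsPP2C78 (LOC_Os12g39120), were just past 4-fold with log2 ratios of -2.01 and -2.03.

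The drought and salt group of the same MapMan table did not move as one. Of 11 loci, 5 were higher and 6 lower, against 56.8% and 34.4% of all items, and the median log2 ratio was -2.10. With a pseudocount of 1, 3 were higher, again with no share of all items computed. The BURP domain gene BURP2 (LOC_Os05g12640) had FPKM 2.56 in control and 691.8 at day 2 (log2 ratio 8.08), and the desiccation-related protein LOC_Os04g33150 0.813 and 69.2 (log2 ratio 6.41). The lower loci include LOC_Os04g14150 (FPKM 294.1 and 52.9) and LOC_Os10g36690 (FPKM 205.8 and 36.2), both described as dehydration response related proteins.

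**Figure D4:**
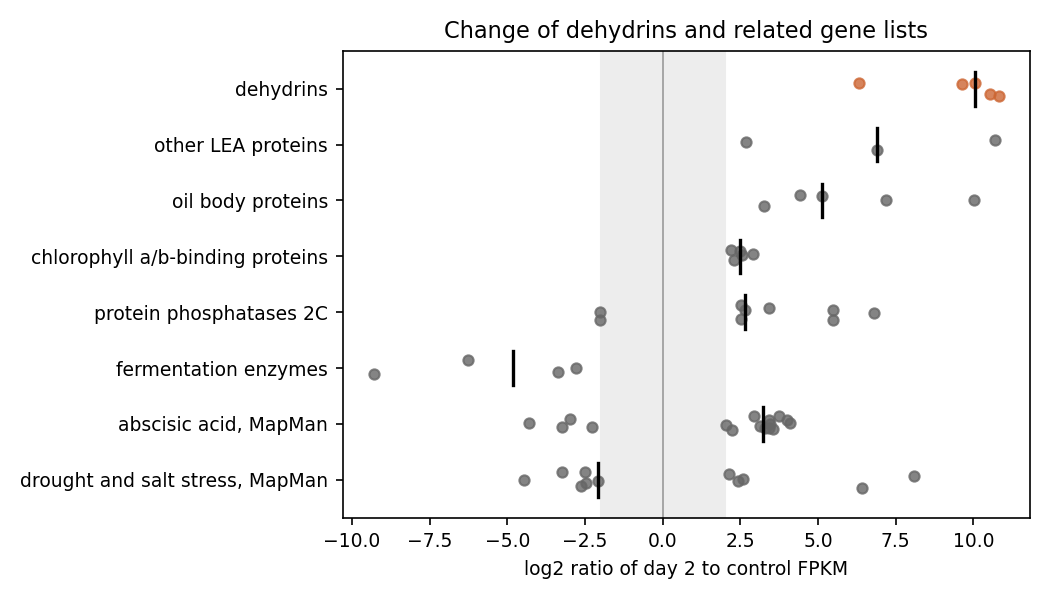
Log2 ratio of day 2 to control FPKM for each locus of 8 gene lists (points) with the list median (bars); the shaded band from -2 to 2 is empty because the tables hold no such changes. Loci listed at 0 in control have no ratio and are left out. The dehydrins run from 6.31 to 10.81, and no ABA locus exceeds 4.11.

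Listed loci of oil body proteins and of chlorophyll a/b-binding proteins had more FPKM at day 2, along with the dehydrins. Oleosins and caleosins coat the oil bodies of embryo and aleurone, tissues in which dehydrins are abundant. Of 7 such loci, 5 were higher, against 56.8% of all items, and 2 were listed at 0 in control. With FPKM 1 required in both groups 3 were higher, with no share of all items computed under that rule. Summed over the 7 loci, FPKM went from 33.9 to 1165. A caleosin locus, LOC_Os04g43170, went from FPKM 0.399 to 413.4 (log2 ratio 10.02), another, PXG (LOC_Os04g43200), from 21.7 to 460.3, and the oleosin OLE18 (LOC_Os03g49190) from 0.638 to 93.4. The 5 listed chlorophyll a/b-binding proteins of green tissue, which a coleoptile in air can itself become, were all higher, against 56.8% of all items. Their log2 ratios ran from 2.21 to 2.92, and their summed FPKM went from 151.8 in control to 786.3 at day 2. Not every gene of photosynthesis rose, since the paper reports by quantitative PCR that a ribulose bisphosphate carboxylase gene went down during senescence. Among genes that fell in leaf senescence, the paper also reports several of photosynthesis that rose in coleoptiles. The part of tissue makeup in the dehydrin values was not tested, and in these bulk samples more cells of a type and more RNA per cell cannot be told apart.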

How the data were processed

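Coleoptile RNA was sequenced as paired-end TruSeq libraries. The kit does not mark strand. As the study's methods state, reads were filtered by the authors with NGS QC Toolkit, mapped with TopHat to Nipponbare IRGSP-1.0, assembled with Cufflinks and Cuffmerge, and compared between groups with Cuffdiff. Per those methods, transcripts at FPKM 1 or more were compared, and those past a log2 ratio of 2 in either direction and a p-value limit were kept. The tables also hold transcripts specific to day 2, and 36 items are under FPKM 1 in both groups. No item is at FPKM 0 at day 2, although the paper also reports genes expressed only in control. The shares of all items given above leave such genes out. The deposited values are FPKM, 1 pooled value per transcript and group. The scaling option of Cuffdiff is not given in the sources used here, and reads of PB1 were mapped to another variety.

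Both tables were joined by transcript ID and FPKM was summed per locus (Python 3.11.15, pandas 2.3.3). Ratios carry no pseudocount. Without values per library, limma could not be used and no test was made. Direction calls were tested on simulated data. Names came from the study's description column and, through its Entrez IDs, RefSeq synonyms (all 5 listed dehydrins matched). Promoter and protein sequences were not analysed here. Named genes were every dehydrin, the 3 highest FPKM of each list (any locus in lists of up to 12), the nearest listed neighbours and the 5 items closest in level. The members and lists were chosen with earlier results of these data known. Alternatives were pseudocounts, FPKM minimums, the transcript used per locus and scaling.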

Additional observations from a re-analysis of the deposited data

How the results depend on the processing

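All 5 dehydrins were higher with no minimum, with either pseudocount and under both scalings. With FPKM 1 required in both groups 3 were, since RAB16C and RAB16D are under that minimum in control. Their median log2 ratio of 10.05 was 9.06 with a pseudocount of 1, 10.95 with day 2 multiplied by 1.86 so that the listed transcripts summed to the same FPKM in both groups, and 9.16 with day 2 divided by that factor, which moved the median of all items by 0.90 as well. The summed FPKM at day 2 was 14482 and 4175 under these scalings. Over single dehydrins, 14 of 25 alternative log2 ratios moved by more than 1.5-fold, none changed sign, and they ranged from 5.41 to 11.71. A change of sign could not occur by construction, so this is no measure of stability. Division by the factor, and control values raised to FPKM 1, were chosen after seeing the data. Of 42 alternative counts for the other lists 6 moved by more than 1.5-fold or to 0. Smaller changes are not among these 6, such as 8 higher ABA loci instead of 12 with a pseudocount of 1. With FPKM 1 in both groups the loci that were higher numbered 3 instead of 5 for oil bodies, 4 instead of 7 for protein phosphatases 2C and 7 instead of 12 for ABA. With a pseudocount of 1 the higher LEA loci were 9 instead of 3, which lets in loci at 0 in control, the higher drought and salt loci 3 instead of 5, and the lower protein phosphatases 2C 0 instead of 2. The share of all items called higher or lower was not computed under these minimums and pseudocounts. A smaller count in a list, the dehydrins included, can therefore not be set against it. No paired analysis was possible because the tables hold 1 pooled value per group, which also kept any replicate from being left out. The lack of fragment numbers limits most the control values near or under FPKM 1.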
